A study of Rattus norvegicus with 4 samples.

Results

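The respiratory chain genes described here are the subunits of the 5 complexes of oxidative phosphorylation and 7 complex I assembly factors named Ndufaf, measured in rat kidney sections on Visium slides. They were chosen by name: features that begin with Nduf, Uqcr, Cox4 to Cox8 or Atp5, the genes Sdha, Sdhb, Sdhc and Sdhd, and the protein-coding genes of the mitochondrial genome. There were 107 members among 32402 features, of which 94 were nuclear and 13 mitochondrially encoded. A further 2 features with pseudogene names were left out, and 2 members had no UMI in any section (Cox7b2 and 1 of the features named Ndufa1). In the cortex 87 or 88 of the 94 nuclear members had enough counts to be compared. The nuclear members fell to complex I (46), II (4), III (9), IV (19) and V (16). The mitochondrially encoded ones fell to complex I (7), III (1), IV (3) and V (2). Complexes were assigned by symbol, so Ndufa4 and Ndufa4l2 count in complex I in all values by complex below. Symbols are those of the files and some are old: Atp5a1 and Atp5b are now Atp5f1a and Atp5f1b, Atp5j is Atp5pf and Atp5l is Atp5mg. A rule by name also takes in features that do not code for a subunit, such as the assembly factor Atp5sl, and misses subunits named otherwise.

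There were 4 groups of Sprague-Dawley rats with 1 section of 10 µm frozen kidney each. The PAN animal had received puromycin aminonucleoside, a podocyte toxin that produces nephrotic disease in rats, was fed freely and was examined 5 months after the injection. The PAN_LS-FMD animal was injected likewise and went through 6 cycles of LS-FMD, a fasting-mimicking diet low in salts, and both injected animals were examined 6 weeks after the treatment period. The healthy animal was untreated, and the healthy_LS-FMD animal, not injected, was taken 72 h into refeeding after 1 cycle. No group had replicates. The labels do not state how many animals a group held. Every interval below is a 95% interval of counting error only, and a difference is one between these sections, not shown to exceed the spread between animals.

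The respiratory chain passes electrons from NADH (complex I) and succinate (complex II) through complex III and cytochrome c to oxygen at complex IV, and ATP synthase (complex V) uses the resulting proton gradient. Complexes I, III, IV and V are built from subunits of both genomes, which are transcribed by different machineries, whereas complex II is wholly nuclear encoded. Tubule cells of the kidney rely heavily on this pathway to drive salt and solute transport, above all in the proximal tubule and the thick ascending limb.

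Nuclear respiratory genes lie in different places of the genome but many carry sites of the same activators, NRF1 and the ETS factor GABP (also called NRF2). RefSeq promoters of the rat assembly GRCr8 were matched for 77 of the 91 nuclear symbols. Of these, 3 symbols were left out because they stood for 2 identifiers, and 11 had no entry. In windows of 300 bases, from 250 before to 50 after the gene start and read on both strands, the NRF1 core CGCATGCG was found in 9 of 77 (11.7%), against 1.66% of all 33469 promoters. The ETS site CCGGAAG was found in 19 of 77 (24.7%, against 8.75%), the estrogen-related receptor site AAGGTCA in 10 (13%, against 4.61%) and the CCAAT box in 26 (33.8%, against 37.5%). These are letters found in a window, not bound sites, and an ETS site and a receptor site can share the letters AAG where they adjoin. The 250 bases before the start are shown for the 3 members with the NRF1 core that had the lowest cortical levels in PAN relative to healthy, with the NRF1 core and any ETS site in capitals.
Atp5j (chr11:37375102-37375351, minus strand, GRCr8): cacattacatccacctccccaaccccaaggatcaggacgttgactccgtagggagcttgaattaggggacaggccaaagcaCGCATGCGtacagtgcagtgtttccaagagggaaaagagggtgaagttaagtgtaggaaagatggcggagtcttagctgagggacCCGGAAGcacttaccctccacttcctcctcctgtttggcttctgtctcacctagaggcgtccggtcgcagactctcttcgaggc
Atp5l (chr8:54130408-54130657, minus strand, GRCr8): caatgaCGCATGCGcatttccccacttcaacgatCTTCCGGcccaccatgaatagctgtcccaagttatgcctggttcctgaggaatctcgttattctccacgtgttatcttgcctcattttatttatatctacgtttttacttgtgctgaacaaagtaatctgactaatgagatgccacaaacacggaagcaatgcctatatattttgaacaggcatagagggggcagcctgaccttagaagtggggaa
Uqcrc1 (chr8:118467973-118468222, plus strand, GRCr8): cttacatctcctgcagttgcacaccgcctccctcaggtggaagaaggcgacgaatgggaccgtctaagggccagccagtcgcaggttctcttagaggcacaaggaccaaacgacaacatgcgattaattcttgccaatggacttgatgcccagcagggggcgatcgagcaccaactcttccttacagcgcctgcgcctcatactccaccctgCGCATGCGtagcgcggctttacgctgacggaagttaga
The core begins 169 bases before the gene start in Atp5j, 244 in Atp5l and 38 in Uqcrc1. Atp5j has 1 ETS site, Atp5l has 1 on the other strand and Uqcrc1 has 0. Atp5j and Atp5l code for small subunits of ATP synthase and Uqcrc1 for a core subunit of complex III. The cortical log2 folds of PAN against healthy were -0.85, -0.81 and -0.57 in that order.

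Levels are given as CPM, that is UMIs (unique molecular identifiers, each 1 captured RNA molecule) scaled to 1000000 over the spots in question. The sections held 24924170 UMIs in 2724 spots (PAN), 58568499 in 2866 (healthy), 34965670 in 2187 (PAN_LS-FMD) and 25330872 in 2593 (healthy_LS-FMD). The median per spot ran from 8472 in PAN and 8818 in healthy_LS-FMD to 19519 in healthy. The healthy section was also processed with another version of the authors' counting software, so the 3 comparisons with it carry that difference. PAN and healthy_LS-FMD shared both the version and a like depth. Spots are small regions with several cells, and their barcodes mark slide positions, of which section pairs shared 1650 to 2279. Each section was divided into regions by clustering, and regions were placed in cortex, outer stripe, medulla or a blood-rich remainder by marker lists. Some regions had leading genes that went against their list. They include a PAN cortical region of 293 spots led by Car3 and Postn, a healthy_LS-FMD cortical region of 279 spots led by Igkc and Ighm, and PAN_LS-FMD regions of 355 and 155 spots led by S3 and distal tubule genes but scored as blood-rich. Results are therefore also given with regions placed by their leading genes, and in regions of proximal S1 and S2 cells. Placing by leading genes left out some regions, among them the Car3 and Postn region and the Igkc and Ighm region. It also left out medullary regions led by Spp1 in healthy (151 spots) and healthy_LS-FMD (345 spots). The Igkc and Ighm region was left out of the S1 and S2 regions too.

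The first comparison, PAN against healthy, asked how the respiratory chain RNA stood months after the toxin. In the cortex, nuclear respiratory chain RNA was 41462 CPM (41343 to 41582) in PAN and 66723 (66604 to 66841) in healthy, while PAN_LS-FMD had 60710 (60568 to 60853) and healthy_LS-FMD 61376 (61207 to 61546). Mitochondrially encoded RNA was 36989, 60878, 35135 and 67843 CPM in the same order. The nuclear sum was thus low in the PAN section alone, whereas the mitochondrially encoded sum was low in both injected sections. PAN against healthy gave log2 folds of -0.69 for the nuclear and -0.72 for the mitochondrially encoded sum, so that both genomes were lower to a like extent. In bulk spots such as these, fewer cells of a type and less RNA per cell cannot be told apart.

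**Figure D1:**
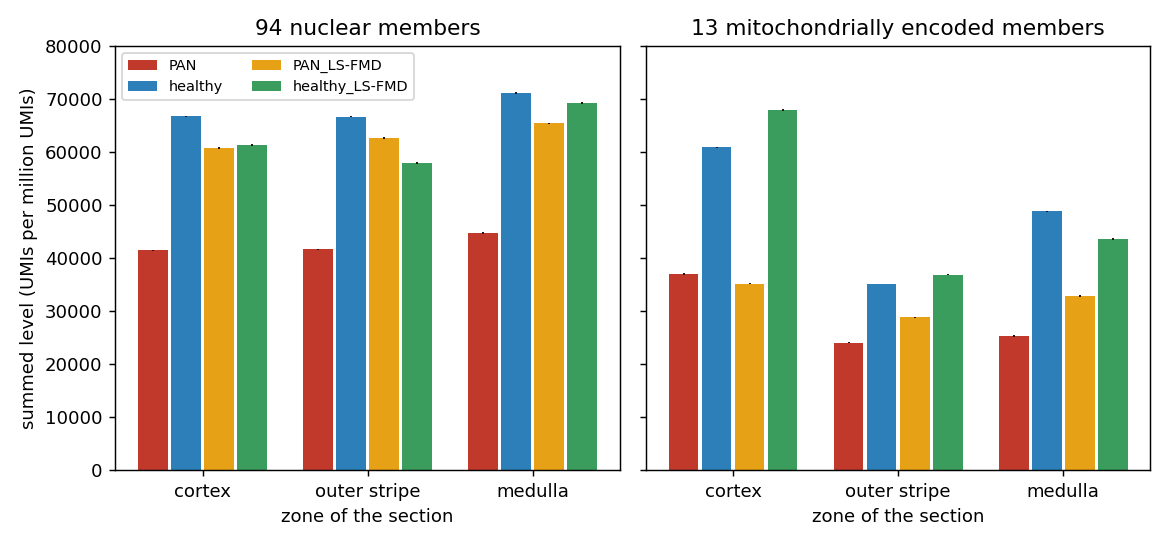
Summed CPM of the 94 nuclear (left) and the 13 mitochondrially encoded members (right) by zone, 1 bar for each section, with 95% counting intervals that are narrower than the line at this scale. The nuclear bar of PAN is the lowest in each zone (41462 CPM in cortex), and the mitochondrially encoded bars of both injected sections are below those of the other sections in each zone.

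The lower nuclear level was spread over the complexes. In the cortex complex I subunits and assembly factors together had 11310 CPM in PAN and 18703 in healthy, complex II 1199 and 2041, complex III 4569 and 7127, complex IV 10695 and 17354 and complex V 13690 and 21498. The log2 folds of these sums lay between -0.77 (complex II) and -0.64 (complex III). The complex I sum took in Ndufa4, placed there by its symbol, with 1788 CPM in PAN and 3864 in healthy. Each complex kept nearly the same share of the nuclear sum in all 4 sections: complex I 27.3 to 28.2%, complex II 2.89 to 3.14%, complex III 10.5 to 11.4%, complex IV 24.3 to 26.0% and complex V 32.2 to 33.8%. Among mitochondrially encoded RNA the folds were less even, -0.56 for complex I, -0.69 for complex IV, -0.81 for complex V and -1.06 for complex III, which is the single gene Mt-cytb.

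A member was counted as higher or lower when its fold was at least 1.5, its counting interval excluded 1 and both sections together held at least 20 UMIs. In the cortex 43 of 88 measured nuclear members were lower in PAN than in healthy and 2 were higher, against a background of 10.1% of 11845 features lower and 39.8% higher. The median log2 fold of the nuclear members was -0.58, beside 0.44 for all features. Without regard to size, the interval lay below 1 for 75 of the 88 and above 1 for 4, a count not made over all features. Of the mitochondrially encoded members 6 of 13 were lower and 0 higher, with a median of -0.58. Scaling by the median of gene ratios moved the all-feature median from 0.44 to 0.15 and raised the number of lower nuclear members to 75, with 2 higher.

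By role, 20 of 36 measured complex I subunits were lower (median log2 fold -0.64), 3 of 4 of complex II (-0.80), 5 of 9 of complex III (-0.80), 7 of 17 of complex IV (-0.52) and 8 of 15 of complex V (-0.60). None of the 7 Ndufaf genes, which help to assemble complex I but are not part of it, was counted in either direction, and their median was -0.17. Ndufaf4 had 22.9 CPM in PAN, 17.5 in healthy, 23.0 in PAN_LS-FMD and 26.8 in healthy_LS-FMD, and Ndufaf7, a methyltransferase that modifies a complex I subunit, had 31.8, 24.7, 27.8 and 24.1. Ndufaf4 was lowest in healthy and Ndufaf7 next to lowest.

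**Figure D2:**
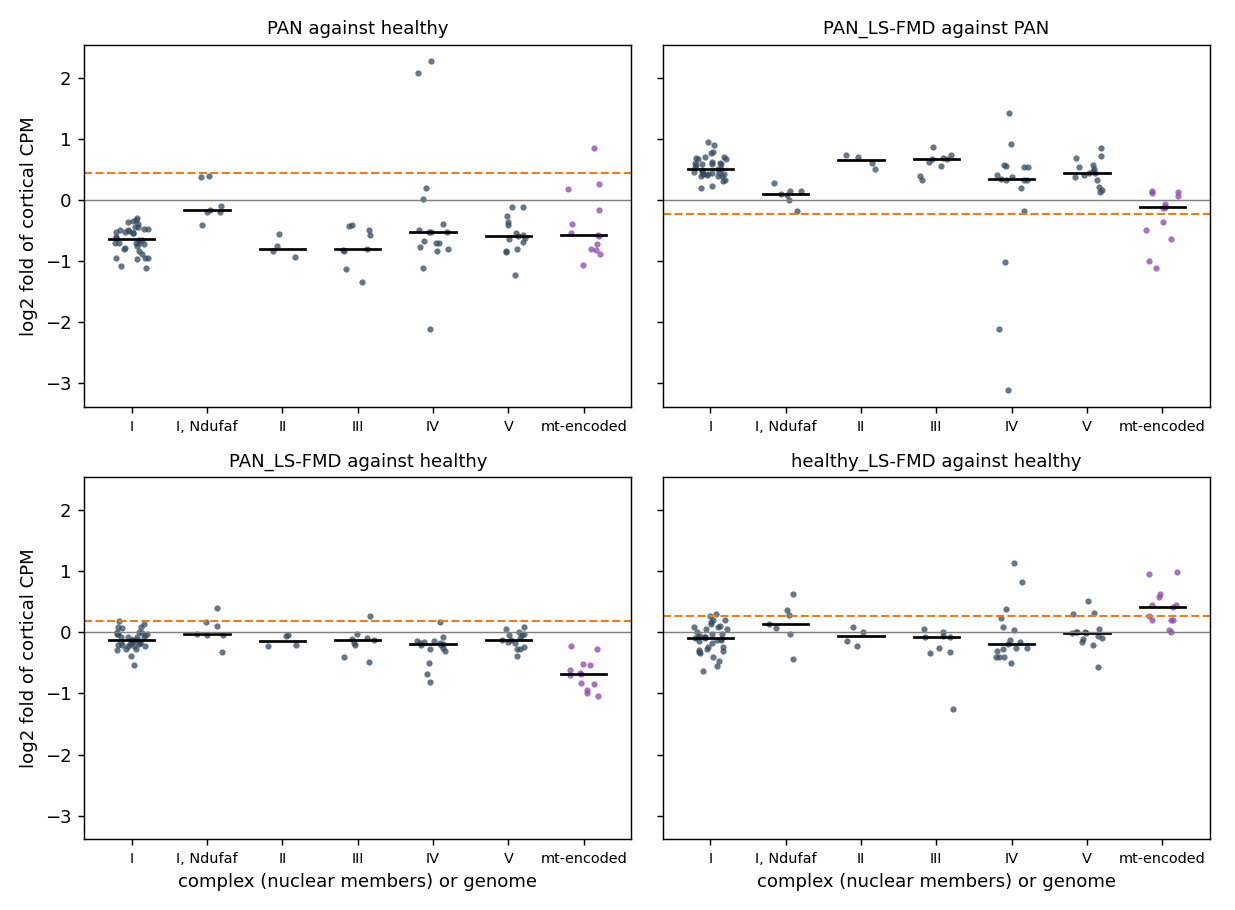
Log2 folds of cortical CPM for each measured member in the 4 comparisons, nuclear members by complex (Ndufaf assembly factors apart) and mitochondrially encoded members at the right. Black bars are medians and the dashed line is the median of all features. Apart from the Ndufaf genes, nuclear complex medians lie between -0.80 and -0.52 in PAN against healthy, between 0.34 and 0.67 in PAN_LS-FMD against PAN, and near 0 in the lower panels.

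The genes of this paragraph were picked for their low cortical folds in PAN against healthy. Atp5a1, the alpha subunit of ATP synthase, had 549 CPM in PAN, 1283 in healthy, 985 in PAN_LS-FMD and 864 in healthy_LS-FMD. It was the nuclear member with the lowest fold among those with at least 200 UMIs, 2.34-fold lower in PAN than in healthy (2.27 to 2.41). Uqcrfs1, the Rieske iron-sulfur protein of complex III, had 172, 378, 287 and 303 CPM and was 2.20-fold lower (2.09 to 2.31). Ndufa4, a protein first assigned to complex I and now known as a complex IV subunit, had 1788, 3864, 3304 and 3212 CPM and was 2.16-fold lower (2.13 to 2.20). For these genes PAN had the lowest level and healthy the highest, with both diet sections in between. That PAN was below healthy follows from how they were picked. Some other members named below were lowest in PAN but not highest in healthy. Atp5b was highest in PAN_LS-FMD, and Sdhb, Atp5g1 and Atp5g3 in healthy_LS-FMD.

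The other nuclear members at the low end were Cox8a, a small subunit of complex IV (1586 CPM in PAN and 3414 in healthy, log2 fold -1.11), Ndufb6 (106 and 224, -1.08) and Ndufb8 (351 and 678, -0.95) of the membrane arm of complex I, Ndufv2 of its NADH-binding module (221 and 434, -0.97), and Ndufab1, the mitochondrial acyl carrier protein (95.6 and 186, -0.96). In complex II, the flavoprotein Sdha had 309 CPM in PAN, 522 in healthy, 502 in PAN_LS-FMD and 473 in healthy_LS-FMD, and the iron-sulfur subunit Sdhb had 317, 467, 451 and 492. The membrane anchors Sdhc and Sdhd had 351, 626, 537 and 534 CPM and 221, 426, 368 and 430 CPM. All 4 were lowest in PAN, and Sdhb was the member not reaching a fold of 1.5 against healthy. At the other end, Cox7a2l, a factor of supercomplex assembly, stood at 199, 197, 175 and 166 CPM, with nearly equal levels in PAN and healthy.

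The 3 genes for the c-ring of ATP synthase encode the same mature protein and differ in their targeting sequences. Atp5g1 had 611 CPM in PAN, 950 in healthy, 849 in PAN_LS-FMD and 989 in healthy_LS-FMD, Atp5g2 had 695, 830, 805 and 831, and Atp5g3 had 1180, 1522, 1487 and 1871. All were lowest in PAN, and Atp5g1 was the one of them past 1.5-fold. Atpif1, which codes for the inhibitor of ATP synthase and is not a member, had 716, 1072, 860 and 837 CPM.

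Other RNA differed along with these values. In PAN cortex the summed tubular injury markers (8 of 8 found) were at 22487 CPM against 777 to 975 in the other sections, macrophage markers (9 of 9) at 6575 against 1287 to 1758 and matrix markers (8 of 8) at 2777 against 367 to 444. Proximal S1 and S2 markers (13 of 13) had 9007 CPM in PAN, 16031 in healthy, 16080 in PAN_LS-FMD and 10142 in healthy_LS-FMD. Their part in the result was not tested. Within regions of proximal S1 and S2 cells, the nuclear sum was 42860 CPM in PAN, 65974 in healthy, 60308 in PAN_LS-FMD and 58645 in healthy_LS-FMD, and PAN against healthy gave log2 folds of -0.62 (nuclear) and -0.67 (mitochondrially encoded). Markers differed inside these regions too. Tubular injury markers had 22624 CPM in PAN and 681 to 882 in the others, macrophage markers 6215 and 1342 to 1782. Matrix markers had 2273 and 268 to 420. S1 and S2 markers had 10966 CPM in PAN, 18158 in healthy, 17399 in PAN_LS-FMD and 14903 in healthy_LS-FMD. The make-up of the spots was thus not held equal.

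PAN_LS-FMD against PAN compared injected animals with and without the diet. Nuclear respiratory chain RNA was higher in PAN_LS-FMD, with a log2 fold of 0.55 in cortex, and mitochondrially encoded RNA was at -0.07. The latter direction depended on the setting, being 0.04 with median-of-ratios scaling and 0.17 over all spots. Of 88 measured nuclear members 28 were higher and 3 lower (the isoforms Cox4i2, Cox6a2 and Cox6b2), against a background of 10.1% of 11637 features higher and 26.8% lower, and their median was 0.47 beside -0.24 for all features. Of the 13 mitochondrially encoded members 0 were higher and 2 lower (Mt-atp8 and Mt-nd4l). This comparison shares the PAN section with the first, so the values of both are not independent.

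All complexes took part in the higher nuclear level, with log2 folds of their sums of 0.59 (I), 0.63 (II), 0.60 (III), 0.50 (IV) and 0.53 (V). The mitochondrially encoded sums had -0.03 (I), 0.11 (III), -0.16 (IV) and 0.12 (V). By members, 14 of 36 complex I subunits, 3 of 4 of complex II, 6 of 9 of complex III, 2 of 17 of complex IV and 3 of 15 of complex V were higher, and again 0 of 7 Ndufaf genes. Ndufb8 had the highest fold of the abundant members, 680 CPM in PAN_LS-FMD and 351 in PAN (log2 0.95), followed by Cox8a (0.92), Ndufa4 (0.89), Atp5a1 (0.85), Ndufv2 (0.78) and Ndufs3, a core subunit of complex I (366 and 217 CPM, 0.76). Atp5b, the catalytic beta subunit of ATP synthase, had 2898 CPM in PAN, 4499 in healthy, 4761 in PAN_LS-FMD and 4491 in healthy_LS-FMD. With regions placed by their leading genes 18 nuclear members were higher in place of 28, and with median-of-ratios scaling 45.

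PAN_LS-FMD against healthy gave values for the nuclear and mitochondrial genomes that lay apart. The nuclear sum had a log2 fold of -0.14 and the mitochondrially encoded sum of -0.79. Among 87 measured nuclear members 0 were higher and 1 lower (Cox4i2), against a background of 10.5% of 11457 features higher and 3.02% lower, and the median was -0.13. The interval of the fold lay below 1 for 60 of the 87, so most were slightly below healthy. That count was not made over all features. Of the mitochondrially encoded members 9 of 13 were lower, with a median of -0.69, and the exceptions were Mt-co2, Mt-nd3, Mt-nd4 and Mt-nd6. By complex the nuclear sums had -0.13 (I), -0.14 (II), -0.05 (III), -0.20 (IV) and -0.12 (V), and the mitochondrially encoded sums -0.58 (I), -0.95 (III), -0.84 (IV) and -0.69 (V).

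The ratio of nuclear to mitochondrially encoded UMIs puts this in 1 number per section. In the cortex it was 1.12 in PAN, 1.10 in healthy, 1.73 in PAN_LS-FMD and 0.905 in healthy_LS-FMD. In the cortex it was highest in PAN_LS-FMD in each complex that mixes the genomes. For complex I it was 2.53, 2.84, 3.88 and 1.93, for complex III 1.91, 1.43, 2.67 and 1.07, for complex IV 0.439, 0.443, 0.690 and 0.362, and for complex V 2.38, 2.12, 3.16 and 1.78. A ratio within a section does not depend on how the section is scaled, and its size depends on how each gene is captured, so only its differences between sections are read here. In S1 and S2 regions it was 1.10, 1.07, 1.72 and 1.07, and with regions placed by leading genes 1.10, 1.10, 1.63 and 0.895.

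The last comparison, healthy_LS-FMD against healthy, set 1 cycle of the diet against none in animals that had not been injected. The cortical log2 fold was -0.12 for the nuclear and 0.16 for the mitochondrially encoded sum, and the latter was -0.09 with median-of-ratios scaling and -0.18 in S1 and S2 regions. Of 88 measured nuclear members 2 were higher (Ndufaf4 and Cox7a1) and 2 lower (Ndufb6 and 1 of the features named Uqcrb), against a background of 20.8% of 11358 features higher and 5.49% lower. The median was -0.08 beside 0.27 for all features, and with median-of-ratios scaling 0 were higher and 11 lower. Of the mitochondrially encoded members 2 of 13 were higher (Mt-nd3 and Mt-nd4l) and 0 lower, with a median of 0.41. Cortical distal convoluted and connecting tubule markers were at 2229 CPM in healthy_LS-FMD and 952 in healthy, and thick ascending limb markers at 8726 and 5574. Their part in these values was not tested.

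Ndufb6 had 106 CPM in PAN, 224 in healthy, 171 in PAN_LS-FMD and 144 in healthy_LS-FMD, so that healthy was the highest section by a log2 difference of 0.63 from healthy_LS-FMD. The lower Uqcrb feature had 2.05, 5.23, 3.74 and 2.18 CPM, while the other feature of that name had 327, 441, 412 and 445. How reads are divided between features of the same name, and the part of the counting software in it, was not tested. At the higher end stood Atp5s, a factor related to ATP synthase, with 16.6, 17.9, 18.5 and 25.7 CPM, and Ndufa11, a complex I subunit, with 556 CPM in healthy_LS-FMD and 452 in healthy.

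The 13 mitochondrially encoded members did not differ alike between sections. Mt-cox3, a core subunit of complex IV, had 12543 CPM in PAN, 23162 in healthy, 11636 in PAN_LS-FMD and 23163 in healthy_LS-FMD. Mt-cytb, cytochrome b of complex III, had 2398, 4995, 2590 and 6017 CPM, and Mt-atp6, the proton channel subunit of ATP synthase, 5729, 10098, 6261 and 11598. These 3 formed pairs, with both injected sections low and close together and both others high.

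Mt-co1, the catalytic subunit of complex IV, had 7499, 11187, 6876 and 11462 CPM in the same order of sections. Among the complex I subunits Mt-nd1 had 1561, 2284, 1485 and 3025 CPM, Mt-nd2 had 1065, 1862, 1171 and 2143, Mt-nd4 had 1228, 1846, 1282 and 2764 and Mt-nd5 had 83.3, 138, 77.3 and 187. These genes followed the same pairs, with healthy_LS-FMD highest. The low-count members were Mt-nd4l (6.24, 8.26, 4.0 and 12.7 CPM), Mt-nd6 (1.87, 1.05, 0.869 and 2.06), the one member coded on the light strand of the mitochondrial genome, and Mt-atp8 (31.0, 27.5, 15.5 and 31.8).

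Mt-nd3 went against that order, as did the sparse Mt-nd6 and Mt-atp8 in PAN, and Mt-co2 differed less between PAN and healthy. Mt-nd3, a complex I subunit, had 530 CPM in PAN, 441 in healthy, 376 in PAN_LS-FMD and 857 in healthy_LS-FMD, and PAN against healthy was 1.2-fold (1.16 to 1.24). Mt-co2, the complex IV subunit that takes electrons from cytochrome c, had 4315, 4829, 3360 and 6579 CPM, with a log2 fold of -0.16. As a share of all mitochondrially encoded member UMIs, Mt-nd3 made up 1.43, 0.725, 1.07 and 1.26% in the cortex, 1.37, 0.685, 1.00 and 1.23% in the outer stripe and 1.5, 0.706, 1.01 and 1.22% in the medulla. In each zone the healthy section, the one with the other software version, had the lowest share, and the part of the version in this was not tested. Mt-cytb made up 6.48% of that sum in PAN and 8.20% in healthy cortex, with 7.37% in PAN_LS-FMD and 8.87% in healthy_LS-FMD.

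**Figure D3:**
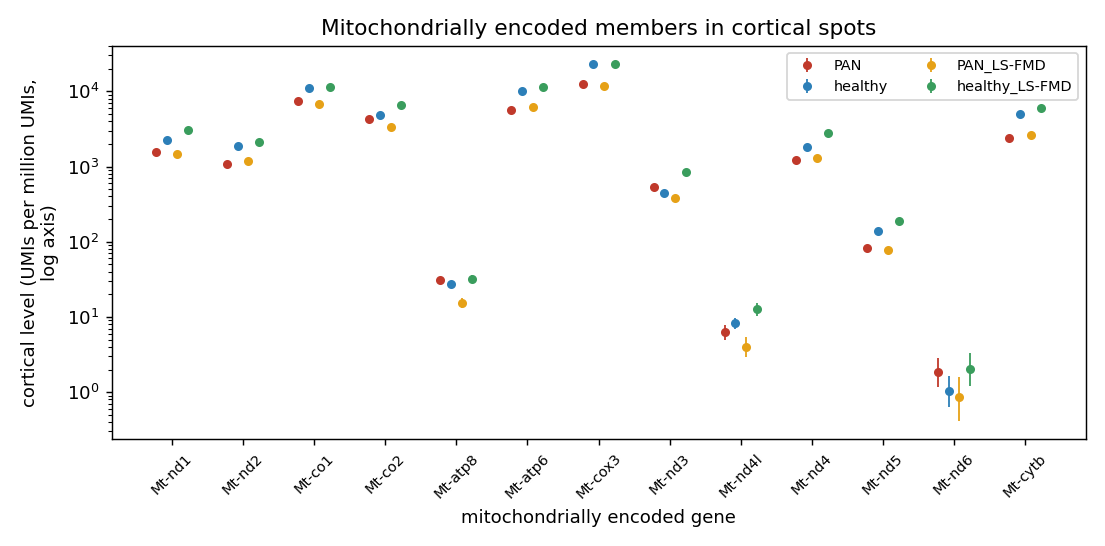
Cortical CPM of the 13 mitochondrially encoded members in the 4 sections on a log axis, with 95% counting intervals. Mt-cox3, Mt-cytb and Mt-atp6 show both injected sections below both others (Mt-cytb 2398 and 2590 against 4995 and 6017 CPM), whereas Mt-nd3 is higher in PAN (530) than in healthy (441).

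Some complex IV subunits have tissue isoforms, one broadly expressed and one of heart and skeletal muscle, testis or lung. The common forms followed the other subunits: Cox4i1 had 1473 CPM in PAN, 2116 in healthy, 1844 in PAN_LS-FMD and 1908 in healthy_LS-FMD, Cox6a1 had 1232, 1770, 1560 and 1489, and the main Cox6b1 feature had 710, 929, 884 and 984. Cox6b2, the form known from testis, went the other way with 18.4, 3.80, 4.26 and 4.97 cortical CPM, 4.83-fold higher in PAN than in healthy (3.66 to 6.45). It was the one nuclear member higher in PAN in cortex, outer stripe and medulla alike. Over whole sections it had 495, 224, 152 and 199 UMIs, in 16.1, 7.29, 6.63 and 7.25% of spots. Among PAN regions it was 37.4 CPM in the blood-rich region and 33.7 in the region led by Car3 and Postn, and 12 in a region led by Slc22a8 and Pck1. In the medulla its level was 22.3 CPM in PAN, 4.14 in healthy, 4.39 in PAN_LS-FMD and 13.8 in healthy_LS-FMD, so healthy_LS-FMD was also above healthy there. Medullary regions of healthy_LS-FMD led by Spp1 and by Slc6a12 had 18.7 and 17.1 CPM.

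Cox6a2, the muscle form paired with Cox6a1, was also higher in PAN cortex, on few counts. It had 34 UMIs in PAN, 13 in healthy, 4 in PAN_LS-FMD and 13 in healthy_LS-FMD, or 3.03, 0.716, 0.348 and 1.58 CPM. The other muscle forms did not share this order. Cox7a1 had 1.25, 1.98, 1.65 and 3.52 CPM and Cox8b 0.713, 3.08, 1.91 and 2.18 CPM, so Cox8b was lowest in PAN. Skeletal and heart muscle markers summed to 11.8 CPM in PAN cortex and 3.52 to 4.35 in the others, with 3, 5, 3 and 4 of 9 markers detected and Ckm, Mb and Myh7 among those at 0 in a section. Smooth muscle and pericyte markers stood at 703 CPM in PAN and 210 to 269 in the others. Their part in the Cox6a2 and Cox6b2 values was not tested.

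Cox4i2, the oxygen-regulated form of Cox4i1, had 5.44, 4.73, 2.70 and 4.85 cortical CPM and was lower in PAN_LS-FMD than in PAN and than in healthy in cortex, outer stripe and medulla. Its highest region was a healthy medullary region led by Spp1 and Slc4a11, with 36.2 CPM, and the matching region of healthy_LS-FMD had 24.3 CPM. Ndufa4l2, a relative of Ndufa4 that is induced by low oxygen, had 7.04, 8.70, 9.56 and 5.94 cortical CPM. It stood at 26.0 CPM in the healthy region led by podocyte genes, at 27.9 in that of PAN_LS-FMD and at 20.4 in that of healthy_LS-FMD, and that of PAN had 16 CPM on 5 UMIs. The level was not particular to podocyte regions. A PAN medullary region led by Slc12a1 had 36.3 CPM, and medullary regions led by Spp1 had 27.5 in healthy and 24.7 in healthy_LS-FMD. In PAN_LS-FMD no medullary region was above 8.65 CPM. Regions were formed from the same counts, so these values are descriptions.

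The nuclear difference between PAN and healthy was of like size in the deeper zones. In the outer stripe the nuclear sum was 41652 CPM in PAN, 66689 in healthy, 62727 in PAN_LS-FMD and 57996 in healthy_LS-FMD, and in the medulla 44728, 71132, 65383 and 69171. PAN against healthy had log2 folds of -0.68 and -0.67. The markers of these zones differed between sections. Outer stripe S3 markers had 669 CPM in PAN, 3956 in healthy, 4094 in PAN_LS-FMD and 4253 in healthy_LS-FMD. Medullary S1 and S2 markers had 2755, 7110, 7627 and 2802 in that order. Medullary thick ascending limb markers were closer, at 16188, 16360, 15946 and 14227 CPM. The other lists behind the medulla were less alike. Inner medulla markers had 577, 1600, 1807 and 2002 CPM there, and principal cell markers 1301, 1413, 1340 and 3376. Their part in the folds was not tested. In the outer stripe 44 of 88 nuclear members were lower and 4 higher (background 9.03% lower and 44.1% higher), and in the medulla 42 of 86 were lower and 3 higher (10.7% lower and 42.8% higher). A set of 30 nuclear members was lower in all 3 zones, among them Atp5a1, Uqcrfs1, Ndufa4, Cox8a, Ndufb6, Sdhc and Sdhd. The overlap of zones was not counted over all features.

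PAN_LS-FMD against PAN gave nuclear log2 folds of 0.59 in the outer stripe and 0.55 in the medulla. There 35 of 87 nuclear members were higher and 4 lower in the outer stripe (background 8.10% higher and 39.5% lower), and 24 of 85 were higher and 3 lower in the medulla (10.8% higher and 39.2% lower). The 14 members higher in all 3 zones included Atp5a1, Atp5b, Ndufa4, Cox8a, Ndufb8, Sdhd and Uqcrfs1. The 2 lower in all 3 were Cox4i2 and Cox6b2. These overlaps were not counted over all features either.

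Mitochondrially encoded RNA differed more between zones. It was 24047 CPM in PAN, 35128 in healthy, 28803 in PAN_LS-FMD and 36889 in healthy_LS-FMD in the outer stripe, and 25283, 48840, 32884 and 43568 in the medulla. PAN against healthy gave -0.55 in the outer stripe (3 of 13 lower) and -0.95 in the medulla (11 of 12 lower). PAN_LS-FMD against PAN gave 0.26 and 0.38, above the cortical -0.07. Mt-atp6, Mt-cox3 and Mt-cytb were lower in PAN than in healthy in all 3 zones. The ratio of nuclear to mitochondrially encoded UMIs was highest in PAN_LS-FMD here too, 2.18 in the outer stripe against 1.57 to 1.90 in the others, and 1.99 in the medulla against 1.46 to 1.77. For complex V alone the medullary ratio was higher in PAN (3.88, 3.81 to 3.94) than in PAN_LS-FMD (3.74, 3.70 to 3.78).

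Of cortex, outer stripe and medulla, the cortex had the most mitochondrially encoded RNA in each section. The blood-rich remainder, whose regions differ in kind between sections, had more than the cortex in 3 of them, with 25014 CPM in PAN, 65246 in healthy, 36792 in PAN_LS-FMD and 93665 in healthy_LS-FMD. Outer stripe over cortex was 0.650 in PAN, 0.577 in healthy, 0.820 in PAN_LS-FMD and 0.544 in healthy_LS-FMD, and medulla over cortex 0.684, 0.802, 0.936 and 0.642. For the nuclear sum the same ratios were 1.00, 0.999, 1.03 and 0.945 and 1.08, 1.07, 1.08 and 1.13. The outer stripe and medulla were thus below the cortex mainly in mitochondrially encoded RNA, and least so in PAN_LS-FMD. The nuclear sum of the medulla was above that of the cortex in each section. The mitochondrially encoded ratio was below 1 in 4 of 4 sections also with regions clustered without the members and with regions placed by their leading genes. An exact sign test over 4 sections cannot go below 0.125, so none was made.

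**Figure D4:**
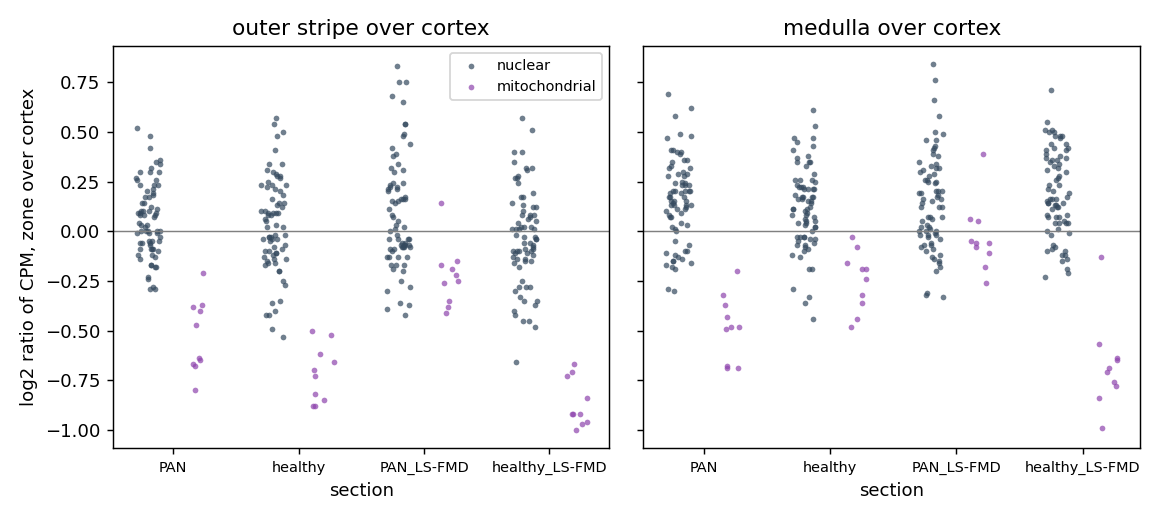
Log2 ratios of CPM in the outer stripe (left) and the medulla (right) over the cortex of the same section, 1 point for each well-counted member. Mitochondrially encoded members lie below 0 in the outer stripe with the exception of Mt-nd5 in PAN_LS-FMD (0.14), and nuclear members lie on both sides of 0.

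Gene by gene, 9 of 10 well-counted mitochondrially encoded members were lower in outer stripe than in cortex in all 4 sections, and Mt-nd5 was in 3 of 4. Of 74 nuclear members 24 were lower and 28 higher in all 4. These counts were not made over all features, so there is no background to read them against. Nuclear members at the high end were Ndufc1, a small complex I subunit (log2 ratios of 0.23, 0.50, 0.75 and 0.57 in PAN, healthy, PAN_LS-FMD and healthy_LS-FMD), Ndufb6 (0.23, 0.54, 0.75 and 0.51) and Ndufab1 (0.42, 0.57, 0.83 and 0.40). At the low end were Cox7b of complex IV (-0.28, -0.49, -0.39 and -0.66), Atp5g3 (-0.29, -0.53, -0.37 and -0.45) and Atp5o, a stalk subunit of ATP synthase (-0.24, -0.42, -0.36 and -0.42). These members differed from the nuclear sum, which was nearly equal in both zones.

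In the medulla 7 of 10 mitochondrially encoded members were lower than in cortex in all 4 sections. Of 75 nuclear members 42 were higher in all 4 and 7 lower, again without a count over all features. Ndufab1 (0.62, 0.61, 0.84 and 0.51) and Ndufb4, a complex I subunit (0.58, 0.47, 0.43 and 0.71), were highest. Atp5g3 (-0.30, -0.44, -0.32 and -0.21) and Atp5o (-0.29, -0.36, -0.31 and -0.23) were again lower, whereas Cox7b lay between -0.20 and 0.15.

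The regions within sections showed that the low nuclear level of PAN was not limited to 1 place. The 53 regions (12 in PAN, 14 in healthy, 13 in PAN_LS-FMD and 14 in healthy_LS-FMD) had nuclear sums of 32364 to 48025 CPM in PAN, 53307 to 76388 in healthy, 55344 to 70420 in PAN_LS-FMD and 53852 to 81014 in healthy_LS-FMD. All 12 PAN regions were therefore below each of the 41 others, and 8 of 12 were so in mitochondrially encoded RNA. Regions of a section share its library and are not replicates.

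By region type, the regions led by podocyte genes had 35806 CPM of nuclear members in PAN, 62012 in healthy, 55344 in PAN_LS-FMD and 53852 in healthy_LS-FMD, which was the lowest region of each diet section. The regions led by Slc12a3, of the distal convoluted tubule, had 71698 in healthy, 70420 in PAN_LS-FMD and 74278 in healthy_LS-FMD, and in PAN a region led by Klk1c9, Calb1 and Slc12a3 had 47714. The lowest PAN values were in a region of 14 spots led by smooth muscle genes (32364) and in the region led by Car3 and Postn (33745). Mitochondrially encoded exceeded nuclear UMIs in 9 regions, of which 6 were in healthy_LS-FMD, 2 in healthy, 1 in PAN and 0 in PAN_LS-FMD.

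**Figure D5:**
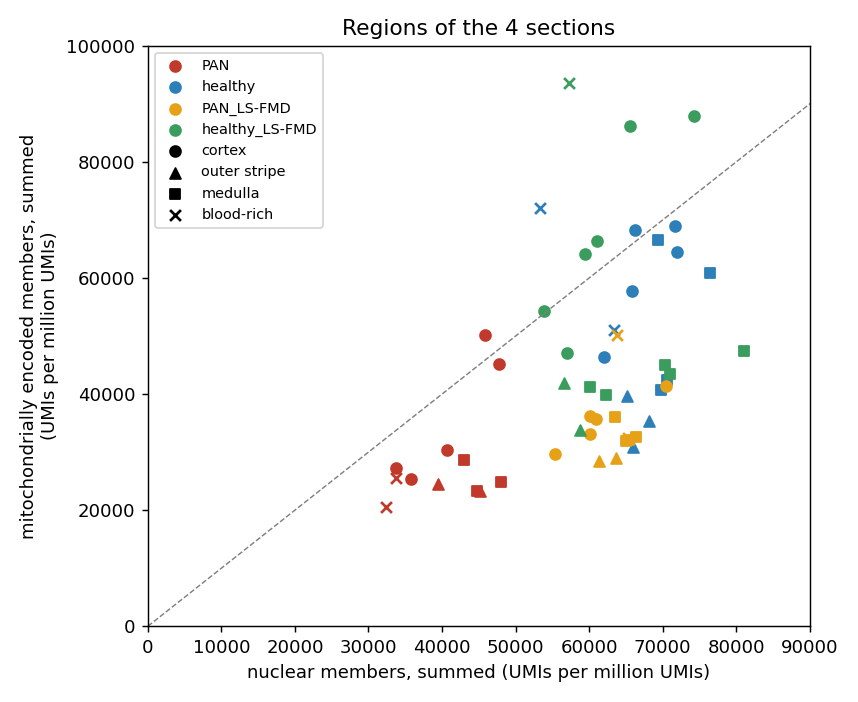
Summed CPM of nuclear members (x axis) and mitochondrially encoded members (y axis) in the 53 regions, coloured by section and shaped by zone, with the dashed line where both are equal. The PAN regions lie at the left, up to 48025 CPM, and no PAN_LS-FMD region lies above the line.

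Single cortical spots gave the same order of sections for the ratio. Mitochondrially encoded exceeded nuclear UMIs in 27.7% of cortical spots in PAN, 29.2% in healthy, 1.37% in PAN_LS-FMD and 62.4% in healthy_LS-FMD, and the median ratio of nuclear to mitochondrially encoded UMIs was 1.27, 1.19, 1.81 and 0.911. Across cortical spots the shares of both kinds had a Spearman correlation of 0.66 in PAN (1162 spots), 0.16 in healthy (1005), 0.35 in PAN_LS-FMD (877) and 0.30 in healthy_LS-FMD (945). The spots of a section share its library and both shares have the same total. The nuclear share also went with the UMIs of a spot, with correlations of 0.47, 0.25, 0.17 and 0.13, so that in PAN the deeper spots had the higher shares.

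Genes around the respiratory chain were read from lists of related pathways in the cortex. In PAN against healthy, 10.1% of all features were lower and 39.8% higher, with a median of 0.44, and the lists below are to be read against these. In that comparison electron carriers and coenzyme Q synthesis had 5 of 16 measured genes lower and 1 higher (median log2 fold -0.37), and the citric acid cycle 6 of 16 lower and 0 higher (-0.51). Cycs, cytochrome c, had 894 CPM in PAN, 1831 in healthy, 1971 in PAN_LS-FMD and 2510 in healthy_LS-FMD. Idh2, the mitochondrial NADP-linked isocitrate dehydrogenase, had 338, 732, 632 and 813 CPM and Mdh2, mitochondrial malate dehydrogenase, 391, 672, 649 and 710. These 3 genes, chosen after their values were seen, were lowest in PAN.

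Factors that assemble complexes II to V had 3 of 28 genes lower and 0 higher with a median of -0.09. Mitochondrial import had 1 of 19 lower and 0 higher (-0.22), and glycolysis 5 of 17 lower and 4 higher (-0.07). Mitochondrial transcription, RNA and DNA genes had 2 of 21 lower and 2 higher (0.15). Tfam, which packages and transcribes mitochondrial DNA, had 72.7 CPM in PAN, 59.6 in healthy, 62.2 in PAN_LS-FMD and 73.9 in healthy_LS-FMD, and Polrmt, its RNA polymerase, 37.4, 38.5, 36.1 and 34.0. Neither gene had a fold of 1.5 in PAN against healthy, and whether their levels bear on mitochondrially encoded RNA was not tested.

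Regulators of nuclear respiratory genes had 3 of 8 higher and 1 lower in PAN (median 0.11), shares near those of all features. Nrf1, whose core site was searched above, had 24.3 CPM in PAN, 16 in healthy, 17.3 in PAN_LS-FMD and 19.8 in healthy_LS-FMD. Gabpb1, a GABP subunit, had 17.1, 8.97, 14.3 and 12.6 CPM and Pprc1, a coactivator of the PGC-1 family, 37.0, 12.8, 18 and 19.7. Sirt3, a mitochondrial deacetylase, was the lower one, with 32.9, 58.6, 56.3 and 48.6 CPM. Ppargc1a itself had 0.802 CPM in PAN and 1.38 in healthy, on 9 and 25 UMIs, and was counted in neither direction.

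In PAN_LS-FMD against PAN, 10.1% of all features were higher and 26.8% lower, with a median of -0.24. There 4 of 16 electron carrier and coenzyme Q genes were higher and 0 lower (median 0.44), 6 of 16 of the citric acid cycle were higher and 0 lower (0.49), and 2 of 28 assembly factors were higher and 0 lower (0.12). Mitochondrial transcription, RNA and DNA genes had 2 of 21 higher and 1 lower (0.03), and regulators 1 of 7 higher and 1 lower (-0.21), the last near all features in its median. In PAN_LS-FMD against healthy the medians of these 5 lists lay between -0.05 and 0.13, and in healthy_LS-FMD against healthy between 0.12 and 0.40, beside 0.19 and 0.27 for all features.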

How the data were processed

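Spatial RNA was measured in 1 kidney section for each of 4 groups. The deposited values are UMI counts per feature and spot, raw and not normalised, made by the authors with Space Ranger 2.0.1 for the healthy section and 1.2.1 for the other 3, per the file headers. The aligner settings, genome build and annotation are not given in the sources used here. Spots under 500 UMIs were left out (2 to 5 per section). No doublet caller was run, since spots are not cells.

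Each section was clustered alone with scanpy 1.11.5 and leidenalg 0.10.2: counts scaled to 10000 per spot, log-transformed, the 2000 most variable genes, 30 principal components, 15 neighbours and Leiden resolution 1. A region went to the zone whose marker list scored highest on log2(CPM + 10). UMIs were summed over the spots of a zone and scaled to 1000000. Levels have exact Poisson intervals and folds exact binomial ones (scipy 1.17.1, 95%, counting error only). A count of 3 was worth 0.165 to 0.364 CPM in the cortex. With 1 section per group no test between animals was made. The calling steps were tested on counts simulated from the healthy cortical sums with known folds and counting error alone. That cannot show how they behave under spread between animals, sections or software versions.

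Named genes were all mitochondrially encoded members, the Sdh genes, the tissue isoforms and Atpif1. Others came from the 8 highest and 8 lowest nuclear members per comparison with at least 200 UMIs in the cortex of each section compared. The members, the lists of related pathways and the comparisons were chosen with earlier results of these data known. The alternatives were scaling without mitochondrially encoded UMIs, median-of-ratios size factors, clustering without the members, resolution 0.5, a minimum of 2000 UMIs per spot, all spots of a section and, added after seeing the data, regions placed by their leading genes. Spot images and coordinates were not used here.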

Additional observations from a re-analysis of the deposited data

Results flagged for a closer look

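For nuclear respiratory chain RNA, the fold between the diet section and the section without it had opposite signs in injected and uninjected animals. The log2 fold of diet against none was 0.55 in injected and -0.12 in uninjected cortex, 0.59 and -0.20 in the outer stripe, and 0.55 and -0.04 in the medulla. Mitochondrially encoded RNA had -0.07 and 0.16 in the cortex and 0.38 and -0.16 in the medulla, and the cortical values change sign with median-of-ratios scaling. The difference was not tested, since each group was 1 section, and the injected animal had 6 cycles of the diet where the uninjected one had 1. The injected animal was examined 6 weeks after the treatment period and the uninjected one 72 h into refeeding. The uninjected comparison also rests on the healthy section, which had another software version and the highest depth. A difference in the effect of the diet cannot be told apart from these.

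The zones of a section also went different ways. Mitochondrially encoded RNA in PAN_LS-FMD against PAN had log2 folds of -0.07 in the cortex, 0.26 in the outer stripe and 0.38 in the medulla. In healthy_LS-FMD against healthy it had 0.16, 0.07 and -0.16. These differences were not tested either, and zones placed by marker lists can take in different regions from section to section.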

How the results depend on the processing

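Values are cortical log2 folds of the nuclear and then the mitochondrially encoded sum, and counts of nuclear members. Under the alternatives run, no called sum changed sign except the mitochondrially encoded sum of the diet comparisons, whose values are given here. For PAN against healthy (-0.69, -0.72, 43 lower), scaling without mitochondrially encoded UMIs gave -0.72 and -0.76, median-of-ratios factors over 5610 genes gave -0.97 and -1.01 with 75 lower, clustering without the members -0.71 and -0.75, resolution 0.5 -0.72 and -0.77, all spots a mitochondrially encoded -0.69, and regions placed by leading genes -0.61 and -0.62. For PAN_LS-FMD against PAN (0.55, -0.07, 28 higher), median-of-ratios factors gave 0.67 and 0.04 with 45 higher, clustering without the members 0.57 and -0.05, resolution 0.5 0.58 and -0.10, all spots 0.60 and 0.17, and placing by leading genes a nuclear 0.49 with 18 higher. For PAN_LS-FMD against healthy (-0.14, -0.79, 1 lower), scaling without mitochondrially encoded UMIs gave -0.18 and -0.83, median-of-ratios factors -0.31 and -0.97 with 5 lower, clustering without the members a mitochondrially encoded -0.80, resolution 0.5 -0.14 and -0.87 with 3 lower, all spots -0.08 and -0.52, and placing by leading genes -0.12 and -0.69 with 3 lower. For healthy_LS-FMD against healthy (-0.12, 0.16, 2 higher, 2 lower), scaling without mitochondrially encoded UMIs gave -0.11 and 0.17, median-of-ratios factors -0.37 and -0.09 with 0 higher and 11 lower, clustering without the members -0.14 and 0.16 with 1 higher, all spots -0.09 and 0.08 with 4 higher, and placing by leading genes -0.10 and 0.19. Median-of-ratios factors moved the median of all features from 0.44 to 0.15, -0.24 to -0.13, 0.19 to 0.01 and 0.27 to 0.02 in that order of comparisons. The minimum of 2000 UMIs per spot moved none of the 16 values. The cause of these shifts was not tested. No paired analysis was possible because each group had 1 section, and no section could be left out. Depth limits the muscle isoforms, which had at most 56 UMIs in any cortex.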
